A study of Mus musculus with 10 samples.

Results

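The genes described here are 7 messenger RNAs that work in other systems has reported as targets of the microRNA miR-483. Bbc3, Smad4, Gdf3 and Cdc25a were reported for the arm miR-483-3p, and Mapk3, Srf and Socs3 for the arm miR-483-5p. They were chosen from those earlier reports, by gene identifier, out of 55401 genes in the count table, with earlier results of these data already known. All 7 passed the filter on low counts, which left 14098 genes for testing. The question was whether they rose in fetal liver without the microRNA. Messenger RNA was sequenced from livers of female mouse fetuses at stage E18.5, late in gestation, from 5 Mir483Pat-KO and 5 wild-type (WT) littermates. Mir483Pat-KO fetuses inherited from the father a germline deletion of Mir483, made by Cre recombination in C57BL/6N embryonic stem cells of 2 independent clones and bred on with C57BL/6J mice, and the maternal Mir483 allele was left intact. The deletion was therefore present in every cell type of the liver, and which clone each fetus descended from is not given in the sources used here. Each library is 1 fetus, and the labels do not say which littermates shared a mother.

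A microRNA guides the Argonaute complex to messenger RNAs that pair with its seed, the bases near its 5′ end, and paired transcripts are degraded or translated less. Loss of a microRNA can therefore raise the level of a target transcript, although a change in translation alone leaves the transcript level as it was. Mir483 lies in an intron of Igf2, the imprinted growth factor gene that is expressed from the paternal chromosome at high level in fetal liver, and its hairpin gives both mature arms.

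The mature arms are shown because the seeds define what was searched for in each gene. Both come from RefSeq (GRCm38.p6), are encoded on the minus strand, and are written 5′ to 3′ with the seed (bases 2 to 8) in capitals.
miR-483-3p (chr7:142654932-142654952): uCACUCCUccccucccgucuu
miR-483-5p (chr7:142654968-142654989): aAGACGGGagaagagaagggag
The DNA letters that pair with the whole seed are AGGAGTG for miR-483-3p and CCCGTCT for miR-483-5p. These 7-mers were sought on the transcript strand of the longest annotated 3′ untranslated region (3′ UTR) and coding sequence of each gene in GENCODE M21. Shorter 6-mer matches lack the base that pairs with seed base 8.

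Among the 7 genes, Gdf3 alone held a 7-mer match in its 3′ UTR to the arm it was reported for. Socs3, reported for miR-483-5p, held a 7-mer match to the other arm, miR-483-3p. No 3′ UTR of the 7 held a 7-mer match to miR-483-5p. The windows below are from the GRCm38 annotation, both on the minus strand, with the match in capitals, and are shown because they are the 3′ UTR 7-mers found among the 7 genes.
Gdf3, miR-483-3p match (chr6:122606283-122606303): tcgggactaggctAGGAGTGt
Socs3, miR-483-3p match (chr11:117967020-117967040): cccaacctaggtgAGGAGTGg
Of 21021 protein-coding genes with an annotated 3′ UTR, 10.7% held a miR-483-3p 7-mer and 2.68% a miR-483-5p 7-mer. Gdf3 also held a 6-mer match to miR-483-5p near the end of its 3′ UTR. Bbc3, Smad4, Cdc25a, Mapk3 and Srf had no 6-mer or longer match to either arm in the 3′ UTR, which says only that those letters are absent from the longest annotated mouse form.

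Coding sequences held further matches. Bbc3 held a miR-483-3p 7-mer with a 6-mer just upstream of it, Smad4 held a 7-mer for each arm, and Mapk3 and Srf each held a miR-483-5p 6-mer. These windows are shown because they hold the longest match to the reported arm in Bbc3, Mapk3 and Srf.
Bbc3, miR-483-3p 7-mer (chr7:16313731-16313751, plus strand): cgtgtggaggaggAGGAGTGg
Mapk3, miR-483-5p 6-mer (chr7:126764691-126764712, plus strand): ccagcctgggcctcaCCGTCTt
Srf, miR-483-5p 6-mer (chr17:46549477-46549498, minus strand): gtgttcctgacagcaCCGTCTg
In 21866 coding sequences the share with a miR-483-3p 7-mer was 14.4%, and 15.8% held a 6-mer or longer match to miR-483-5p. No match was found in the coding sequences of Cdc25a, Gdf3 or Socs3. A match is a description of the letters and was not tested as a binding site.

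Library totals ran from 10831350 to 14765880 counts. Mir483 itself had 10 to 22 counts in the WT libraries and 0 in all 5 Mir483Pat-KO libraries, where 3 counts would have been 0.197 to 0.271 CPM (read counts scaled to library size). The libraries were made from polyadenylated RNA, so these few counts do not measure the mature arms. By the study's own microRNA sequencing of E18.5 livers of this knockout, both mature arms were lacking. Hepatocyte markers such as Alb and Ttr summed to 246657 to 275113 CPM in WT and 229197 to 259679 CPM in Mir483Pat-KO livers, and none of the 10 was at 0. Of these markers 8 had a fold change below 0, with a median log2 fold change of -0.14. An unadjusted p under 0.05 was found for 4 of the 10, beside 22.2% of all genes tested in either direction. At an adjusted p under 0.05, 1 marker, Apoa1, fell, beside 2.76% of all genes (edgeR). Of 11 stellate cell and mesenchymal markers, 9 had a fold change below 0 (median -0.38). Among the 11, 5 had an unadjusted p under 0.05, beside 22.2% of all genes, and 0 passed, beside 5.19% (edgeR, either direction). Their sums were 649 to 1176 CPM in WT and 595 to 903 CPM in Mir483Pat-KO livers. Across all genes tested, the log2 fold change fell with GC content (Spearman rho = -0.44 over 14089 genes, which are not independent). Its median was 0.20 in the 1408 genes lowest in GC and -0.14 in the 1408 highest. The numbers that end the sample descriptions fall into a lower range (4 WT and 2 Mir483Pat-KO libraries) and an upper range (1 WT and 3 Mir483Pat-KO libraries). The labels do not say what they stand for, so values by range are given where they bear on a gene.

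Of the 7 genes, Socs3 rose in Mir483Pat-KO livers and the other 6 did not pass the test. Socs3 was the single gene of the 7 with an adjusted p under 0.05 (edgeR quasi-likelihood test, Benjamini-Hochberg adjustment over all 14098 genes). By the same rule 342 genes, 2.43% of those tested, were called higher and 389 genes (2.76%) lower, 5.19% in either direction. No gene of the 7 passed with a fold change over 1.5 as well, against 1.23% of all genes. At an unadjusted p under 0.05, Smad4 and Socs3 were higher, against 11.5% of all genes. Fold changes were above 0 for 5 of the 7 genes and for 50.9% of all genes. The median log2 fold change of the 7 was 0.15, beside 0.0042 over all genes tested. It was 0.15 for the 4 genes reported for miR-483-3p and 0.0063 for the 3 reported for miR-483-5p. These medians rest on few genes and single livers. Without WT replicate 5 they were 0.033 for the 7, 0.019 for the miR-483-3p genes and 0.033 for the miR-483-5p genes. The median of the 7 was also 0.024, 0.071 and 0.048 without Mir483Pat-KO replicate 1, 3 or 4, and 0.013 within the lower range.

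**Figure D1:**
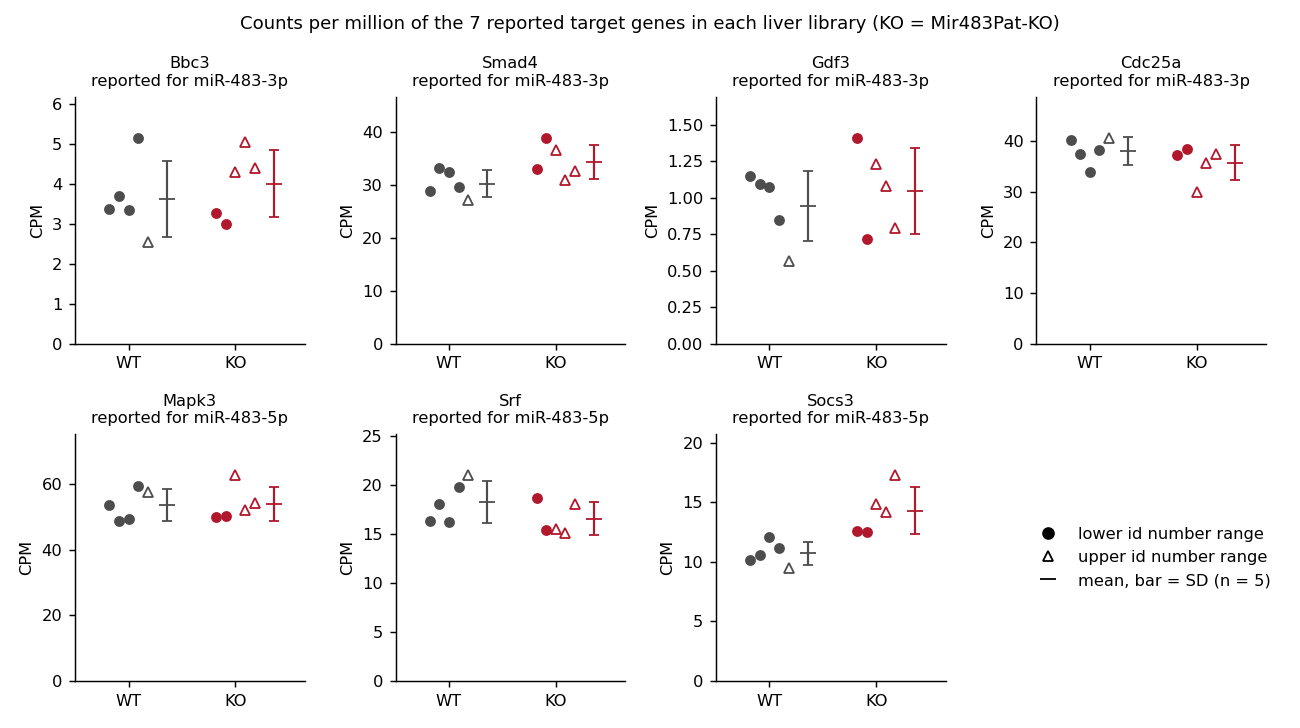
CPM (y axis, from 0, a separate scale for each gene) of the 7 genes in each liver, with WT in grey and Mir483Pat-KO in red, 1 point per fetus, and the mean with its SD (n = 5) beside the points. Filled circles are livers of the lower range of identification numbers and open triangles those of the upper range. For Socs3 all 5 Mir483Pat-KO points (12.5 to 17.3) lie above all 5 WT points (9.51 to 12.1), and in the other 6 panels the groups overlap.

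Bbc3 (ENSMUSG00000002083, chr7:16308393-16318205, plus strand) encodes PUMA, a BH3-only protein that triggers mitochondrial apoptosis and is induced by p53. It was measured at 3.37, 3.69, 3.36, 5.16 and 2.54 CPM in WT replicates 1 to 5 and at 3.28, 3.01, 4.29, 5.05 and 4.41 CPM in Mir483Pat-KO replicates 1 to 5. The highest and the lowest of the 10 values were both WT, so the groups overlapped fully. Means were 3.62 ± 0.959 (SD, n = 5) and 4.01 ± 0.844 CPM (SD, n = 5), a log2 fold change of 0.15 ± 0.20 (SE) with a 95% interval of -0.28 to 0.57 (adjusted p = 0.714). Within the lower range the 2 Mir483Pat-KO livers (3.01 and 3.28 CPM) were below all 4 WT livers (3.36 to 5.16). In the upper range the 3 Mir483Pat-KO livers (4.29 to 5.05) were above the single WT liver (2.54). The difference between these genotype effects, which rests on the 1 WT liver of the upper range and takes it to vary like the others, was 1.16 ± 0.399 (log2, SE, unadjusted p = 0.0109) and did not pass adjustment (adjusted p = 0.471, with 0 of 14098 genes passing and 1134 at an unadjusted p under 0.05, edgeR interaction term added after the data were seen). Bbc3 lies at the 99.8 percentile of GC content, and with offsets for GC content and length its log2 fold change was 0.33 (adjusted p = 0.371). Single livers moved it too, to 0.037 without WT replicate 5, 0.30 without WT replicate 4 and 0.048 without Mir483Pat-KO replicate 4.

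Smad4 (ENSMUSG00000024515) encodes the common SMAD through which receptor-activated SMADs of the TGF-β and BMP pathways regulate transcription. Its levels in WT livers were 28.9, 33.1, 32.5, 29.6 and 27.1 CPM, and those in Mir483Pat-KO livers 33.0, 38.9, 36.5, 30.9 and 32.7 CPM. Mir483Pat-KO replicates 2 and 3 lay above every WT liver, and the other 3 lay inside the WT span. The mean went from 30.2 ± 2.52 to 34.4 ± 3.22 CPM (SD, n = 5 each), a log2 fold change of 0.19 ± 0.084 (SE) with a 95% interval of 0.0085 to 0.36. Its unadjusted p was 0.0411 and its adjusted p 0.204 (edgeR), and the two-sided exact permutation test of the means gave p = 0.0556. The difference thus did not pass once adjusted for the number of genes tested.

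Gdf3 (ENSMUSG00000030117, chr6:122605403-122610087, minus strand) encodes a ligand of the TGF-β family that acts with Nodal in the early embryo, and was the gene with the 3′ UTR match to its reported arm. It was close to the limit of detection, with 127 counts over all 10 libraries. WT livers had 1.15, 1.09, 1.07, 0.847 and 0.564 CPM, and Mir483Pat-KO livers 1.41, 0.714, 1.23, 1.08 and 0.790 CPM. Mir483Pat-KO replicates 1 and 3 lay above every WT liver and the other 3 inside the WT span. The log2 fold change was 0.15 ± 0.29 (SE, adjusted p = 0.807), and its 95% interval, -0.47 to 0.76, left room for changes from 0.724-fold to 1.70-fold. Leaving out WT replicate 5 brought the value to 0.0013, and leaving out Mir483Pat-KO replicate 1 or 3 brought it to 0.0080 or 0.071.

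Cdc25a (ENSMUSG00000032477, chr9:109875579-109893895, plus strand) encodes a phosphatase that activates cyclin-dependent kinases on entry into S phase. Levels in WT were 40.2, 37.5, 33.9, 38.2 and 40.7 CPM, against 37.2, 38.5, 30.0, 35.8 and 37.5 CPM in Mir483Pat-KO. A single Mir483Pat-KO liver, replicate 3, lay below all WT livers and none lay above them. The log2 fold change was -0.089 ± 0.081 (SE) with a 95% interval of -0.26 to 0.083 (adjusted p = 0.554). The upper end of that interval is a 1.06-fold level in Mir483Pat-KO, so a larger rise lay outside it. Without Mir483Pat-KO replicate 3 the log2 fold change was -0.043, and without WT replicate 3 it was -0.14. Within the lower range the 4 WT livers (33.9 to 40.2 CPM) and the 2 Mir483Pat-KO livers (37.2 and 38.5 CPM) gave 0.013, and in the upper range the WT liver had 40.7 CPM and the 3 Mir483Pat-KO livers 30.0 to 37.5 CPM.

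Mapk3 (ENSMUSG00000063065, chr7:126759601-126765819, plus strand) encodes ERK1, the kinase at the end of the RAS-RAF-MEK cascade. It was the gene of the 7 with the log2 fold change nearest to 0. WT livers had 53.5, 48.6, 49.3, 59.4 and 57.5 CPM and Mir483Pat-KO livers 50.0, 50.2, 62.7, 52.2 and 54.3 CPM. Apart from Mir483Pat-KO replicate 3, the highest of the 10, every Mir483Pat-KO liver lay inside the WT span. Means of 53.6 ± 4.80 and 53.9 ± 5.20 CPM (SD, n = 5 each) gave a log2 fold change of 0.0063 ± 0.081 (SE, adjusted p = 0.974). The 95% interval ran from 0.892-fold to 1.13-fold. With GC and length offsets the log2 value was 0.11 (adjusted p = 0.411), Mapk3 lying at the 90.2 percentile of GC content, and with each library left out in turn it lay lowest at -0.065 when Mir483Pat-KO replicate 3 was omitted and highest at 0.036 when WT replicate 4 was.

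Srf (ENSMUSG00000015605, chr17:46548329-46556175, minus strand) encodes serum response factor, which binds immediate early and actin cytoskeleton genes together with ternary complex and myocardin-related cofactors. The WT livers gave 16.3, 18.1, 16.2, 19.8 and 21.0 CPM, and the Mir483Pat-KO livers 18.7, 15.4, 15.5, 15.1 and 18.1 CPM. Mir483Pat-KO replicates 2, 3 and 4 lay below all WT livers and the other 2 inside the WT span. The log2 fold change was -0.14 ± 0.10 (SE), with a 95% interval of -0.35 to 0.069 (adjusted p = 0.428). Srf lies at the 99.7 percentile of GC content, and with offsets for GC content and length its log2 fold change turned to 0.054. Without WT replicate 5 it was -0.086.

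Socs3 (ENSMUSG00000053113, chr11:117966079-117970047, minus strand) encodes a suppressor of cytokine signalling, which binds gp130-type receptors and JAK kinases and is itself induced through STAT3. WT replicates 1 to 5 had 10.2, 10.6, 12.1, 11.2 and 9.51 CPM, and Mir483Pat-KO replicates 1 to 5 had 12.6, 12.5, 14.9, 14.2 and 17.3 CPM. All 5 Mir483Pat-KO livers were above all 5 WT livers, a separation seen in the same direction in 3.34% of all genes tested (6.60% counting both directions) and in none of the other 6 genes. The mean rose from 10.7 ± 0.983 to 14.3 ± 1.96 CPM (SD, n = 5 each). Its log2 fold change of 0.42 ± 0.11 (SE) has a 95% interval of 0.19 to 0.65, which is 1.14-fold to 1.57-fold around a 1.34-fold rise (adjusted p = 0.0379, edgeR). The two-sided exact permutation test of the means gave p = 0.00794, the smallest that 5 livers against 5 allow.

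The call for Socs3 was close to the threshold and depended on single libraries. Leaving out WT replicate 1, 4 or 5 gave adjusted p values of 0.0588, 0.0675 and 0.0852, and leaving out Mir483Pat-KO replicate 3, 4 or 5 gave 0.0839, 0.0831 and 0.0877 (edgeR), with a log2 fold change of 0.33 to 0.45 over all 10 omissions. Within the lower range of identification numbers, WT livers had 10.2 to 12.1 CPM and the 2 Mir483Pat-KO livers 12.5 and 12.6 CPM, a log2 fold change of 0.18 (adjusted p = 0.560). In the upper range, the single WT liver had 9.51 CPM and the 3 Mir483Pat-KO livers 14.2 to 17.3 CPM. The difference between the genotype effects, resting on that 1 WT liver, was 0.52 (log2) and did not pass (adjusted p = 0.569, edgeR). With range as a covariate the log2 fold change was 0.37 (adjusted p = 0.0677), and with GC and length offsets it was 0.54 (adjusted p = 0.0085).

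**Figure D2:**
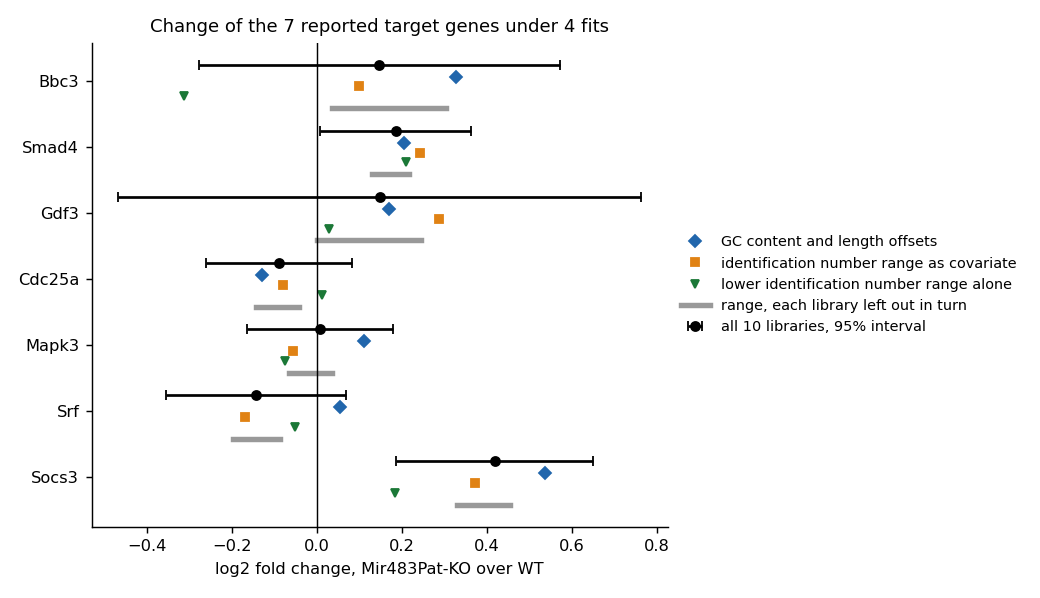
Log2 fold change, Mir483Pat-KO over WT (x axis), of the 7 genes (y axis), as black points with 95% intervals from all 10 libraries (edgeR). Coloured points are the same value with GC and length offsets, with identification number range as a covariate and within the lower range alone, and grey bars span the values with each library left out in turn. The intervals of Smad4 and Socs3 lie above 0 and those of the other 5 genes include 0, and the lower-range value of Bbc3 is -0.31.

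To compare abundance between genes, CPM was divided by exonic length in kilobases (CPM per kb). In WT livers Mapk3 stood first at 23.8 ± 2.13 (SD, n = 5), followed by Smad4 at 8.15 ± 0.680, Srf at 6.32 ± 0.732, Cdc25a at 4.75 ± 0.338, Socs3 at 3.71 ± 0.340, Bbc3 at 1.71 ± 0.451 and Gdf3 at 0.390 ± 0.100. No 2 neighbours in this order overlapped in WT. In Mir483Pat-KO livers Socs3 (4.95 ± 0.677) stood between Srf (5.72 ± 0.583) and Cdc25a (4.46 ± 0.419) and overlapped both, and the other neighbours kept apart. The place of Cdc25a depends on the length used, since its merged exons span 8023 bases and the transcript with its longest coding sequence 3632. Per kb of such a transcript, an alternative chosen after the data were seen, Cdc25a stood above Smad4 in WT livers at 10.5 ± 0.744 against 8.94 ± 0.744 CPM per kb, with overlap, and Smad4 overlapped Srf. Socs3 stood below Mapk3, Smad4, Srf and Cdc25a in WT livers by either length.

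The pathways of the 7 genes were read through lists of their other components. These lists were chosen with earlier results of these data known, so the shares called are descriptions. The apoptosis list around Bbc3 held 15 other genes of the BCL-2 family. Of the 13 tested, 0 passed in either direction (edgeR, adjusted p under 0.05), beside 5.19% of all genes. By DESeq2 and by limma-voom 0 passed also, and 1 passed with GC and length offsets. An unadjusted p under 0.05 was found for 2 of the 13 (Bcl2l1 and Pmaip1), beside 22.2% of all genes in either direction. The median log2 fold change was 0.0060. Pmaip1 encodes NOXA, the other BH3-only protein under p53. WT replicates 1 to 5 had 1.60, 1.51, 1.79, 1.85 and 1.90 CPM and Mir483Pat-KO replicates 2.34, 3.17, 3.45, 1.35 and 3.09 CPM. Mir483Pat-KO replicates 1, 2, 3 and 5 lay above all WT livers and replicate 4 below all of them, and the log2 fold change of 0.64 did not pass (adjusted p = 0.119).

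For Smad4 and Gdf3, 39 of 42 other TGF-β and BMP genes were tested, of which 1 rose and 1 fell, with a median log2 fold change of 0.0076. The share called, 5.13%, was close to the 5.19% of all genes. Fst, encoding follistatin, which binds activins, rose from 9.56 ± 1.96 to 14.8 ± 2.63 CPM (SD, n = 5 each; log2 fold change 0.63, adjusted p = 0.0220). Eng, encoding the endothelial co-receptor endoglin, fell from 69.3 ± 6.90 to 54.6 ± 4.22 CPM (log2 fold change -0.34, adjusted p = 0.0219), with all 5 Mir483Pat-KO livers below all WT livers. Beside Eng, 10 endothelial markers summed to 517 to 594 CPM in WT and 459 to 555 CPM in Mir483Pat-KO livers, and none was at 0. Of these markers 9 had a fold change below 0 and 0 passed. An unadjusted p under 0.05 was found for 2 of the 10, beside 22.2% of all genes in either direction. Their part in the fall of Eng was not tested. The receptor-activated SMADs that partner Smad4 had log2 fold changes of 0.092 for Smad2, -0.013 for Smad3, 0.14 for Smad1 and 0.014 for Smad5, with adjusted p values of 0.513 or above for Smad2, Smad3 and Smad5 and 0.403 for Smad1. Without WT replicate 5 or Mir483Pat-KO replicate 4, 0 of the 39 genes passed, without WT replicate 3 or Mir483Pat-KO replicate 2 or 3, 1 passed, and without Mir483Pat-KO replicate 1, 4 passed. The count was 5 without the filter on low counts, 1 with GC and length offsets and 0 within the lower range. With the filter Nodal was too low to test, with 20 counts in WT and 42 in Mir483Pat-KO, and Gdf1 had no count in any library. Without the filter Nodal did not pass (adjusted p = 0.305, edgeR), and adjusted p values of genes tested in both fits changed.

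Around Cdc25a the data looked different. Of 26 other regulators of cyclin-dependent kinases, 8 rose and 1 fell (34.6% called, beside 5.19% of all genes). Their median log2 fold change was 0.20, while Cdc25a itself was at -0.089. As the list was chosen with earlier results of these data known, the contrast with all genes is a description. Cdc25c, a paralogue that acts at mitotic entry, spanned 11.1 to 14.2 CPM in the WT livers and 14.8 to 21.4 CPM in the Mir483Pat-KO livers, with no overlap (log2 fold change 0.52, adjusted p = 0.0122). Cdc25b, the third member of the family, rose from 235 ± 27.1 to 303 ± 41.9 CPM (SD, n = 5 each; log2 fold change 0.36, adjusted p = 0.0439). The inhibitor gene Cdkn1b (p27) rose by 0.63 on the log2 scale (adjusted p = 0.00733), and Rb1, the retinoblastoma gene, by 0.56 (adjusted p = 0.0138). Cdkn1a (p21) fell from 48.1 ± 2.88 to 27.7 ± 3.34 CPM (log2 fold change -0.80, adjusted p = 3.53e-04), with every Mir483Pat-KO liver below every WT liver. The genes that rose thus included both activators and inhibitors of the cell cycle. Without WT replicate 3 or 5 or Mir483Pat-KO replicate 3, 4 or 5, 4 or 5 of the 26 passed instead of 9, and within the lower range 1 passed.

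Markers of dividing and of erythroid cells were read beside these genes. Of 18 proliferation markers, 2 of which are also in the list of kinase regulators, 2 rose (Bub1 and Ccnb1, 11.1% called beside 5.19% of all genes; Ccnb1 is also among the kinase regulators that rose) and 0 fell, 16 had a fold change above 0, and their sum was 3015 to 3534 CPM in WT and 3534 to 3963 CPM in Mir483Pat-KO livers. Of 15 erythroid markers, 3 rose (20.0% called), Hbb-bs and Rhag among them, and 0 fell, 13 had a fold change above 0, and none was at 0. Their sum was 17382 to 22146 CPM in WT and, in Mir483Pat-KO, 20373 and 22022 CPM in the lower range and 26471 to 28285 CPM in the upper range, where Socs3 was also higher. Their part in the differences of Socs3 and of the Cdc25 genes was not tested, and in whole liver more cells of a type and more RNA per cell cannot be told apart.

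For Mapk3, 25 other genes of the RAS-ERK cascade were tested, of which Braf rose and 0 fell (4% called, not above the 5.19% of all genes), with a median log2 fold change of 0.0020. Braf, encoding the RAF kinase, spanned 27.0 to 36.3 CPM in the WT livers and 38.1 to 47.6 CPM in the Mir483Pat-KO livers (log2 fold change 0.34, adjusted p = 0.0406). No gene of the list passed without WT replicate 1, 4 or 5 or without Mir483Pat-KO replicate 2, 3, 4 or 5, nor within the lower range, and 3 passed with range as a covariate. The feedback phosphatase gene Dusp6, induced by ERK activity, was 1.18-fold higher on average and did not pass (adjusted p = 0.108).

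For Srf, 23 of 26 cofactor and target genes were tested and 0 passed in either direction (edgeR), beside 5.19% of all genes. By DESeq2 and by limma-voom 0 passed also, and without the filter on low counts 2 passed. At an unadjusted p under 0.05 were 5 of the 23, beside 22.2% of all genes in either direction. The median log2 fold change was -0.024. The cofactor genes Mrtfa and Mrtfb had log2 fold changes of -0.074 (adjusted p = 0.650) and -0.13 (adjusted p = 0.346). Actb, an SRF target of the cytoskeleton, averaged 943 ± 28.7 CPM in the WT livers and 938 ± 29.4 CPM in the Mir483Pat-KO livers (SD, n = 5 each).

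**Figure D3:**
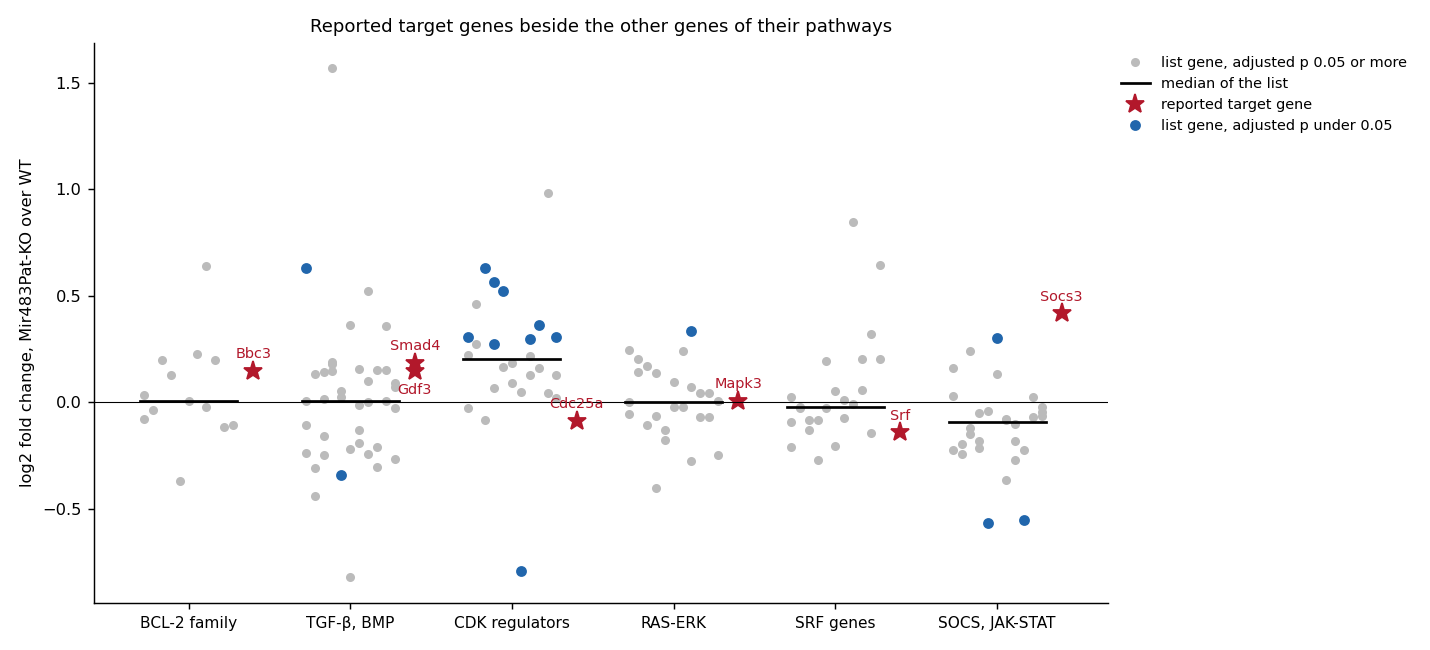
Log2 fold change, Mir483Pat-KO over WT (y axis), of the genes of each pathway list (x axis), 1 point per gene, blue where the adjusted p is under 0.05 and grey otherwise, with the list's median as a bar and the reported target genes as red stars. Cdc25a (-0.089) lies under the median of its list (0.20), and Socs3 (0.42) above the median of its list (-0.095).

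Most genes around Socs3 had a fold change on the other side of 0. Of 32 other SOCS and JAK-STAT genes, 28 were tested, 22 had a fold change below 0, 1 rose and 2 fell (10.7% called, beside 5.19% of all genes, of which 50.9% had a fold change above 0), and the median log2 fold change was -0.095. The list includes fibrinogen and other genes of hepatocytes, whose markers also lay mostly below 0 (8 of 10), and the part of that in the list was not tested. Jak2, the kinase of erythropoietin and growth hormone receptors, rose from 47.9 ± 4.41 to 59.0 ± 2.65 CPM (SD, n = 5 each; log2 fold change 0.30, adjusted p = 0.0265), without overlap. Stat2, which carries interferon signals, fell with a log2 fold change of -0.57 and an adjusted p of 0.00307, again without overlap. Stat3, through which Socs3 is induced, spanned 127 to 140 CPM in the WT livers and 104 to 125 CPM in the Mir483Pat-KO livers, and did not pass (log2 fold change -0.22, adjusted p = 0.0547). In this list 6 genes passed without Mir483Pat-KO replicate 1, 5 by DESeq2, 5 with range as a covariate and 0 within the lower range. Without the filter, where genes it removes such as Socs1 were tested too, 5 passed.

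With the default filter no other SOCS family gene tested passed, and the nearest in direction, Socs4, had a 1.18-fold higher mean (adjusted p = 0.205). Socs1, which inhibits JAK kinases in interferon signalling, had 7, 10, 16, 17 and 18 counts in the WT libraries in order of count, and 4, 4, 6, 6 and 6 in the Mir483Pat-KO libraries, too few for the default filter. All Mir483Pat-KO livers (0.306 to 0.541 CPM) were below all WT livers (0.622 to 1.31 CPM; two-sided exact permutation p = 0.00794, unadjusted), and without the filter its log2 fold change was -1.38 (adjusted p = 0.0374, edgeR over 28428 genes). Socs2, induced by growth hormone through STAT5, averaged 27.8 ± 5.93 CPM in the WT livers and 21.6 ± 3.90 CPM in the Mir483Pat-KO livers (SD, n = 5 each) and did not pass with the filter (log2 fold change -0.36, adjusted p = 0.136), whereas it passed in the same fit without the filter that called Socs1 (log2 fold change -0.36, adjusted p = 0.0247). Cish, another STAT5 target, was at 51.3 ± 4.67 and 57.3 ± 5.69 CPM (log2 fold change 0.16, adjusted p = 0.264). Socs1 and Stat2 moved beside a list of 18 interferon-response genes, 2 of them shared with the JAK-STAT list and Stat2 among these. Of the 18, 15 fell and 0 rose (83.3% called, beside 2.76% of all genes called lower and 5.19% in either direction). This list too was chosen with earlier results of these data known. Its sums were 1015 to 1083 CPM in WT and 466 to 946 CPM in Mir483Pat-KO livers. The part of that change in the SOCS values was not tested.

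**Figure D4:**
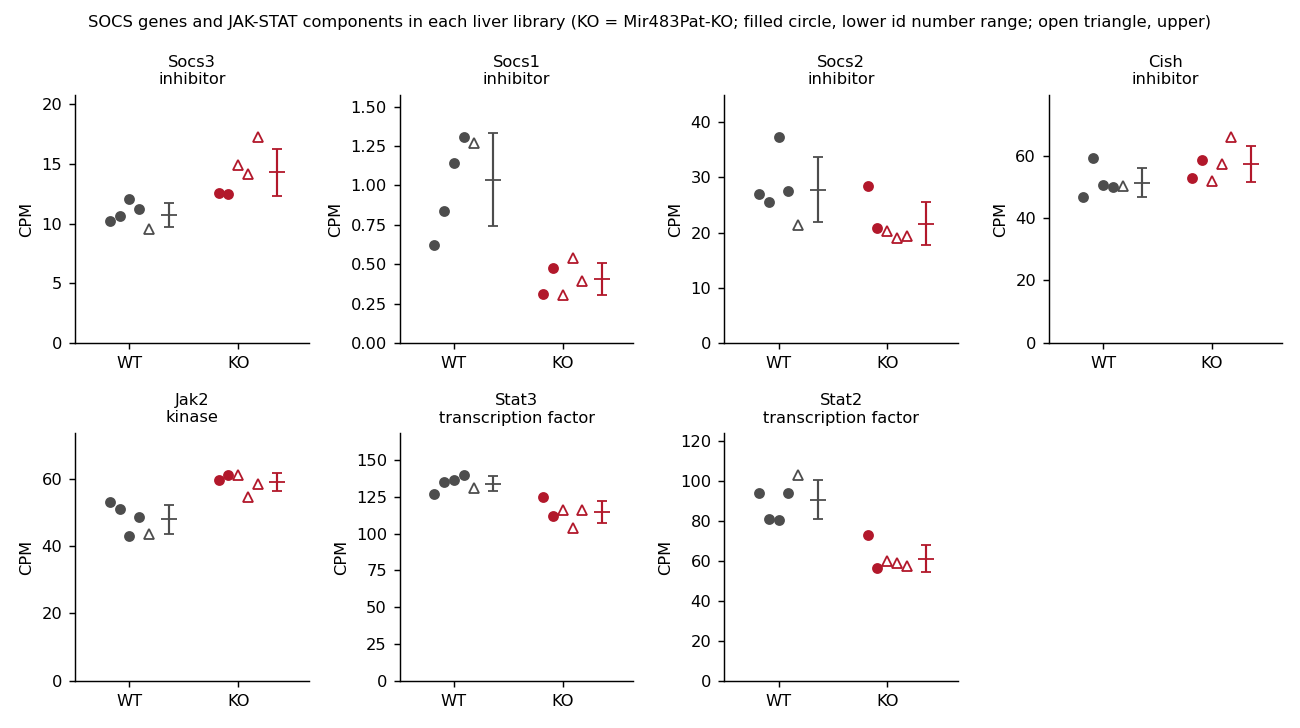
CPM (y axis, from 0, a separate scale for each gene) of Socs3, 3 other SOCS family genes, Jak2, Stat3 and Stat2 in each liver, WT in grey and Mir483Pat-KO in red, 1 point per fetus, with the mean and SD (n = 5) beside the points. All Mir483Pat-KO points lie above all WT points for Socs3 and Jak2 and below them for Socs1, Stat3 and Stat2, while Socs2 and Cish overlap.

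The genes most like each of the 7 across the 10 livers were sought by Pearson correlation of log2 CPM among 12549 genes of higher expression. The points share genotype, library depth and GC effects, so these values are descriptions. Socs3 was most like Tent5c (r = 0.957, rho = 0.976) and Epb41 (r = 0.955, rho = 0.964), both of which rose in Mir483Pat-KO livers (log2 fold changes 0.39 and 0.30, adjusted p = 0.0258 and 0.0305). Tent5c encodes a poly(A) polymerase and Epb41 the red cell membrane protein 4.1. Smad4 was most like Pus3 (r = 0.986) and Larp4b (r = 0.949), Srf most like Gbp2 (r = 0.957) and Supt5 (r = 0.913), and Cdc25a most like Sf3a1 (r = 0.956) and Gmppb (r = 0.944). Mapk3 was nearest to Disp1 (r = 0.942) and Plscr3 (r = 0.934), Bbc3 to D430020J02Rik (r = 0.949) and Hspbap1 (r = 0.911), and Gdf3 to Igf2bp3 (r = 0.919) among others. Correlations among the 7 genes themselves, 21 pairs not selected for likeness, ran from -0.588 for Smad4 with Srf to 0.554 for Bbc3 with Socs3 over the same 10 livers.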

How the data were processed

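Per the study's methods, polyadenylated RNA was made into stranded TruSeq libraries, sequenced paired-end and aligned with STAR to GRCm38. The authors deposited raw read counts per gene, with no normalization, and strand and multi-mapping rules for counting are not given in the sources used here. From these counts, edgeR 4.0.16 (R 4.3.3) with TMM scaling and the default filter (minimum count 10) gave quasi-likelihood tests of genotype over all 10 libraries, without covariates, with Benjamini-Hochberg adjustment over 14098 genes. CPM use TMM library sizes, and log2 CPM for correlations a prior count of 2. Exact permutation tests used every arrangement of the 10 livers. The steps were tested on simulated data. Fitted alternatives were RLE scaling, DESeq2 1.42.0, limma-voom (limma 3.58.1), a robust fit, 2 other filters, GC and length offsets, number range, a replicate block and omission of each library.

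The 7 genes and the lists were chosen with earlier results of these data known. Genes named were the 7, their listed paralogues and partners, up to 4 genes of smallest p passing in each list, and the 2 most correlated genes each. Bcl2l1, Dusp6, Actb, Stat3, Socs4 and the erythroid markers that rose lie outside that rule and were named after their values were seen, as were Alb, Ttr, Apoa1 and Bub1. Sequence comes from RefSeq and GENCODE M21 (both GRCm38). Sequence windows of Smad4 and some genes that the rule names are not reported here.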

Additional observations from a re-analysis of the deposited data

How the results depend on the processing

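The rise of Socs3 kept its direction under all 20 alternatives (log2 fold change 0.18 to 0.54) but not its call. With identification number range as a covariate it was 0.371, and within the lower range alone 0.184, and in both 0 of the 7 genes passed. With each library left out it ran from 0.329 to 0.453, and 0 or 1 of the 7 genes passed. None of the other 6 genes passed under any alternative that gave an adjusted p (lowest 0.0860, for Smad4). Directions turned for Bbc3 (-0.313), Cdc25a (0.0130) and Mapk3 (-0.0744) within the lower range, for Mapk3 also with range as a covariate (-0.0555) and with single libraries left out (-0.0649 to 0.0364), and for Srf with GC and length offsets (0.0543). The cause was not tested. Gdf3 has no value with at least 10 counts in every library and no adjusted p by DESeq2.

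WT and Mir483Pat-KO libraries share replicate numbers, but the correlation of their deviations from the group means was over 0.1 in 2 of 5 same-numbered pairs (-0.0496 to 0.261), so the main fit was unpaired. With the replicate block the log2 fold change of Socs3 was 0.416 (adjusted p = 0.0307) and no call among the 7 genes changed, while the count over all genes went from 731 to 1338. That count was 1160 with DESeq2, 1258 of 28428 genes without a filter, 1189 with range as a covariate and 23 within the lower range, and 279 to 863 with 1 library left out. Without the filter, 5 rather than 2 of the TGF-β and BMP genes and 2 rather than 0 of the SRF genes passed. That fit changed the adjusted p of genes tested in both, from 0.0439 to 0.00223 for Cdc25b and from 0.204 to 0.306 for Smad4 (edgeR).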
